A study of Mus musculus with 9 samples.

Results

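Ribosome biogenesis in MyC-CaP cells treated with ASPN was assessed from 45 genes that encode subunits and regulators of RNA polymerase I (Pol I), proteins of the small nucleolar ribonucleoproteins (snoRNPs) and assembly factors of the 40S and 60S ribosomal subunits. The genes were taken by symbol from the deposited count table, and 45 of 45 were among its 15384 protein-coding genes. The MyC-CaP line comes from a mouse prostate tumor and carries a human MYC transgene driven by a probasin promoter, and ASPN (asporin) is a protein secreted by fibroblasts of the tumor stroma. Cells of this line, starved of serum and calcium beforehand, received recombinant mouse ASPN at 100 ng/mL and were harvested at 0, 12 and 24 hours, with 3 biological replicates each. Time 0 also carries ASPN as its treatment label, and its libraries were used as the start of the treatment. Cells kept for 12 or 24 hours without ASPN were not analysed here, so the effect of ASPN and that of the hours in culture after starvation cannot be told apart. All 9 libraries come from 1 cell line in culture. Among prostate luminal markers, Hoxb13 (67.6 to 104 CPM) and Krt8 (24.8 to 42.2 CPM) were present in all 9 libraries, whereas Epcam (0 to 1 counts), Cdh1 (0 to 10 counts) and Krt18 (2 to 22 counts) were at or near 0. Defining markers of basal cells (Krt5, 0 to 1 counts), leukocytes (Cd3e, 0 to 1 counts), endothelium (Cdh5, 0 to 1 counts) and fibroblasts (Col1a1, 0 to 8 counts) were also at or near 0, and Pdgfra was at 350 to 689 counts.

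Ribosomes are made in the nucleolus, where Pol I transcribes the ribosomal DNA into a long precursor RNA. The snoRNPs guide chemical modification and cutting of this precursor, and assembly factors fold it with ribosomal proteins into the 40S and 60S subunits, which are then exported. In cancer cells this pathway is known as a target of MYC, and in prostate cells driven by MYC enlarged nucleoli are a textbook feature. The libraries were made from mRNA, so ribosomal RNA itself and the activity of Pol I were not measured, and every value here is the mRNA level of a gene that encodes a protein of the pathway.

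The counts of a library totaled 41881191 to 52993821, and the lowest count of any of the 45 genes in any library was 494 (Polr1e) and the highest 295436 (Npm1), so counting error was small for all of them. Levels are CPM, counts scaled to a common library size with TMM factors over the 9 libraries. Time 0 had TMM factors of 1.04 to 1.07 and 12 hours a like range of 1.04 to 1.05, and the 24-hour factors were 0.899 to 0.914. The 10 most abundant genes took 7.51% to 8.02%, 7.67% to 7.80% and 9.81% to 10.15% of the counts of these times. Genes were compared between times with edgeR's quasi-likelihood test, and the p-values were adjusted over all genes tested by the Benjamini-Hochberg method. A gene is said to have risen or fallen where its adjusted p was 0.05 or less, and is called where its fold change was also at least 1.5. In bulk RNA, more cells with a given mRNA and more of that mRNA per cell cannot be told apart.

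At time 0, the nucleolar proteins Npm1 and Ncl exceeded the other genes in mRNA level per kilobase of exon. Npm1 (nucleophosmin, a chaperone of ribosomal proteins that makes up much of the granular nucleolus) had 1237 ± 55.8 CPM per kilobase (SD, n = 3), and Ncl (nucleolin, which binds the precursor RNA) had 163 ± 5.75. Next in order were Nhp2 (99.1 ± 2.80), Pes1 (67.1 ± 0.708), Nop10 (54.0 ± 1.82), Fbl (48.7 ± 0.506) and Polr1c (47.1 ± 2.40). Fbl and Polr1c lay within their SD of each other, and so did Polr1c and Nolc1 (47.0 ± 0.166). The lowest levels per kilobase were those of Utp15 (5.46 ± 0.152), Polr1e (3.68 ± 0.463) and Wdr12 (3.02 ± 0.0550). At 24 hours Polr1c was the gene with the fourth highest level (86.5 ± 2.63 CPM per kilobase), behind Npm1 (2316 ± 72.9), Ncl (242 ± 8.996) and Nhp2 (149 ± 3.52). The exon lengths include retained introns, and with the longest coding transcript as the length Fbl had 171 CPM per kilobase at time 0 and ranked directly behind Npm1 and Ncl. With that length Nop56 ranked 5 in place of 12, Pes1 8 in place of 4 and Nop10 11 in place of 5 at time 0, and Polr1c ranked 5 in place of 4 at 24 hours.

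After 12 hours the mRNA levels of the ribosome biogenesis genes differed little from time 0. Of the 45 genes, 0 were called in either direction by edgeR's quasi-likelihood test, where 1.6% of all genes tested were called (1.5% higher and 0.0964% lower). DESeq2 also called 0. The log2 fold changes lay between -0.11 and 0.08, with a median of -0.02 against -0.00 over all 11410 genes tested, and 18 were above 0 (background 48.1%) and 27 below (background 51.9%). By the adjusted p alone 1 gene fell and 0 rose (background 3.47% and 6.85%), and at an unadjusted p under 0.05 there were 4 (background 21.4%), with lower Nolc1, Bop1, Nob1 and Rrp9 (background 9.26% lower). The replicate values of 1 gene lay wholly above those of time 0 (Heatr1; background 13.4%) and those of 4 lay wholly below (Nolc1, Bop1, Ebna1bp2 and Nob1; background 13.6%).

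The gene that fell at 12 hours was Nolc1 (Nopp140, a nucleolar phosphoprotein that binds snoRNPs and Pol I). Its level was 186, 187 and 187 CPM at time 0, 178, 169 and 171 CPM at 12 hours and 163, 152 and 172 CPM at 24 hours. The 12-hour libraries lay below those of time 0 without overlap, and 1 of the 24-hour libraries overlapped the 12-hour range. Nolc1 fell by 0.11 on the log2 scale at 12 hours (SE 0.03, adjusted p = 0.0395, edgeR), which was 0.0736 with the replicate number as a block, 0.148 with all 9 libraries in 1 fit, and up to 0.209 without 1 library. Bop1 (a 60S assembly factor of the PeBoW complex) had 82.9, 86.2 and 88.6 CPM at time 0, 80.4, 79.7 and 78.9 at 12 hours and 67.9, 81.5 and 74.7 at 24 hours, and its 12-hour difference of -0.10 did not pass (SE 0.03, adjusted p = 0.0686, edgeR). Heatr1 (a 40S processome factor that also takes part in Pol I transcription) had 70.5, 72.0 and 74.0 CPM at time 0 and 75.7, 75.8 and 74.2 at 12 hours, a difference of 0.06 (SE 0.03, adjusted p = 0.305, edgeR), and 58.3, 61.5 and 60.7 CPM at 24 hours. Its 24-hour libraries were thus the lowest of the 9 and its 12-hour libraries the highest.

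**Figure D1:**
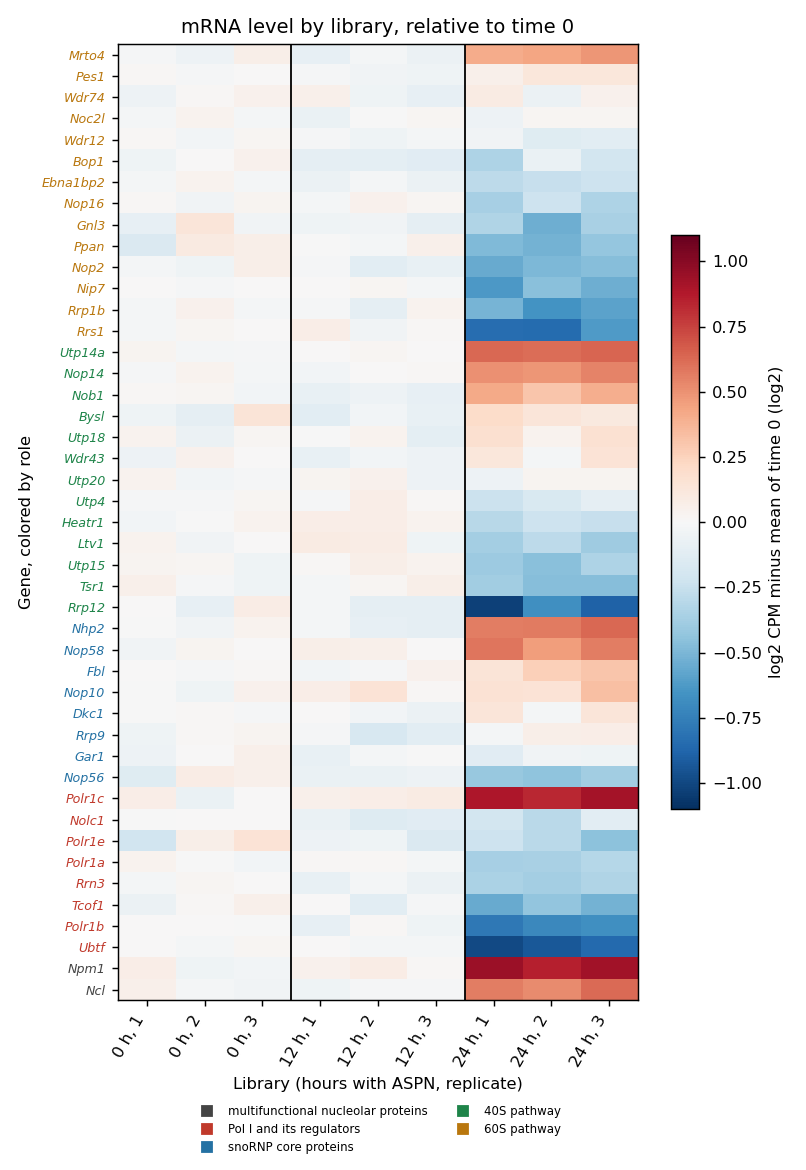
Level of each of the 45 genes in each of the 9 libraries as log2 CPM minus the mean of the time 0 libraries (color), with genes grouped by role and ordered by their 24-hour change. The 12-hour columns look like those of time 0, and the 24-hour columns hold both higher genes (Npm1 and Polr1c at the top of the color scale) and lower genes (Ubtf, Rrp12 and Rrs1).

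After 24 hours the genes of the pathway had moved in both directions. Of the 45 genes, 8 were called (17.8%), against 28.8% of all genes tested, so the share of called genes was not above the background. The 4 called higher (8.89%, background 12%) were Npm1, Polr1c, Utp14a and Nhp2, and the 4 called lower (8.89%, background 16.8%) were Ubtf, Rrp12, Rrs1 and Polr1b. Scaled by library totals alone, which moved the median of all genes by -0.22 on the log2 scale, the split was 2 higher and 13 lower, and Utp14a (0.41) and Nhp2 (0.37) were no longer called. By the adjusted p alone 13 rose (28.9%, background 34.4%) and 23 fell (51.1%, background 36.5%), and 9 did not pass. The median log2 fold change was -0.16, against -0.02 over all 11444 genes tested, with a range of -0.92 to 0.91, and 20 were above 0 (background 48.9%) and 25 below (background 51.1%). The 3 libraries of 24 hours lay wholly above those of time 0 for 12 genes (background 35.6%) and wholly below for 24 (background 38.3%). The comparisons of 12 and of 24 hours with time 0 share the time 0 libraries.

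**Figure D2:**
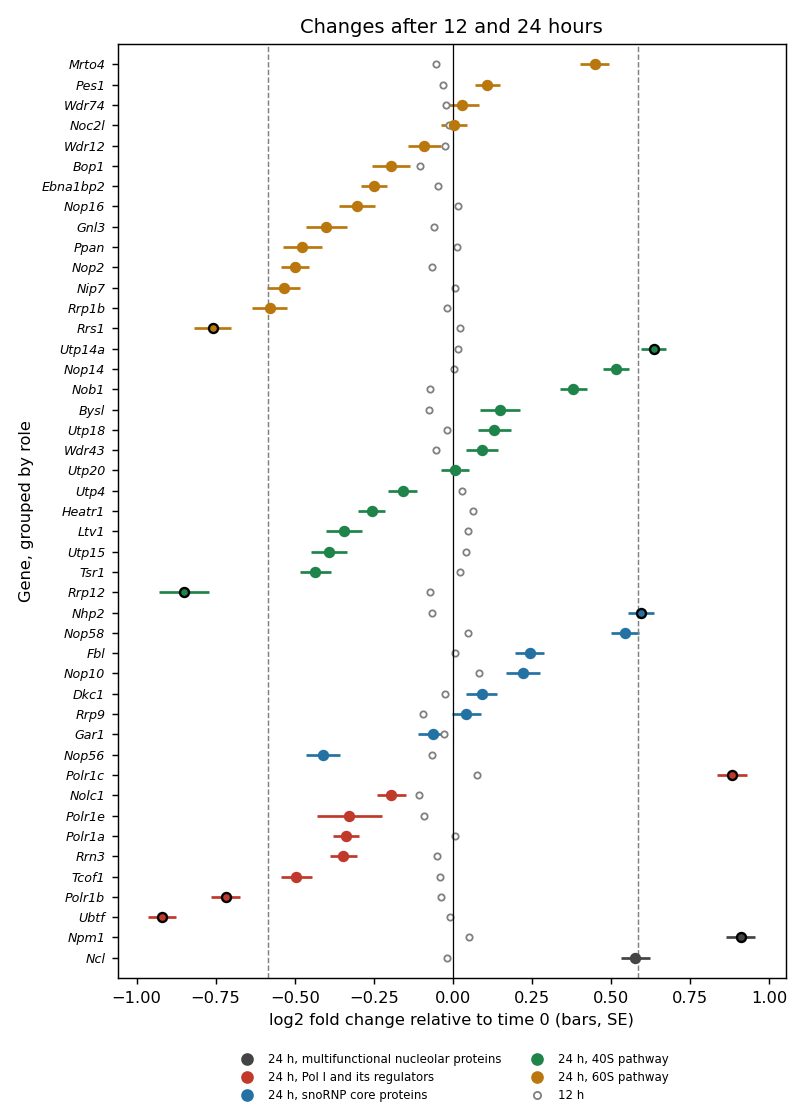
Log2 fold change of each gene at 24 hours relative to time 0 (filled circles in the color of the role, bars are the SE, black rims mark called genes) and at 12 hours (open circles), with dashed lines at 1.5-fold. The open circles lie between -0.11 and 0.08, and the filled circles spread from -0.92 (Ubtf) to 0.91 (Npm1) with both directions present among Pol I, 40S and 60S genes.

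The role groups had different medians at 24 hours, and their counts by the adjusted p alone stand against a background of 34.4% of all genes tested that rose and 36.5% that fell. Among the 8 genes of Pol I and its regulators 1 rose and 7 fell (median -0.34), and among the 14 genes of the 60S pathway 2 rose and 9 fell (median -0.28). With offsets for exon length and GC content, the Pol I genes Polr1a (-0.00) and Nolc1 (-0.10) did not pass. Nor did the 60S genes Bop1 (-0.07) and Pes1 (0.08). The 13 genes of the 40S pathway were split, with 4 that rose, 6 that fell and a median of 0.01. Of the 8 core proteins of snoRNPs 4 rose and 1 fell (median 0.16), and both multifunctional nucleolar proteins rose (median 0.74). With scaling by library totals the snoRNP proteins Nhp2 (0.37), Nop58 (0.32) and Fbl (0.02) were above 0. Nop56 (-0.63), Gar1 (-0.29), Rrp9 (-0.18), Dkc1 (-0.13) and Nop10 (-0.0007) were then below 0. These groups are small and were not tested against each other.

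Both multifunctional nucleolar proteins rose at 24 hours. Npm1 (chr11:33152287-33163206, GRCm38, as all gene positions here) was at 3468, 3191 and 3234 CPM at time 0, 3411, 3490 and 3319 CPM at 12 hours and 6326, 5953 and 6234 CPM at 24 hours. Every 24-hour library was far above the 6 others, and the libraries of time 0 and 12 hours overlapped. Npm1 had a log2 fold change of 0.91 at 24 hours (SE 0.05, adjusted p = 2.02e-09, edgeR), the highest of the 45 genes and above 95.2% of all genes tested, although with offsets for exon length and GC content Polr1c (0.83) was above Npm1 (0.81). Ncl (chr1:86344719-86359400) was at 1728, 1639 and 1618 CPM at time 0, 1611, 1644 and 1649 CPM at 12 hours and 2457, 2382 and 2565 CPM at 24 hours. The 24-hour libraries again lay above all others. For Ncl the log2 fold change was 0.58 (SE 0.05, adjusted p = 9.42e-08, edgeR), just under the limit of 1.5-fold, and Ncl passed this limit with DESeq2 or RLE factors (0.59 each), with upper-quartile factors (0.61), and without replicate 1 of time 0 (0.63) or replicate 2 of 24 hours (0.60). Ncl was farther below the limit with offsets for exon length and GC content (0.54) and with scaling by library totals (0.35). Of the 75-base windows of the longest coding Npm1 transcript, 30.85% recur in transcripts of 7 annotated pseudogenes, so part of its counts depends on how reads with several matches were handled, which is not stated. For Ncl this share was 0.01%.

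Because of their abundance, Npm1 and Ncl set the total of the group. The summed level of the 45 genes was 8940 ± 165 CPM at time 0, 8952 ± 94.6 at 12 hours and 12528 ± 324 at 24 hours (SD, n = 3). Without Npm1 and Ncl the sums were 3981 ± 42.5, 3910 ± 14.8 and 3889 ± 86.1 CPM, and the means of time 0 and 24 hours differed by about the SD of the 24-hour libraries. This near equality depends on the TMM factors, whose lower values at 24 hours (0.899 to 0.914) raise CPM relative to time 0 (1.04 to 1.07). With scaling by library totals alone, the median 24-hour log2 fold change of the 45 genes was -0.38 in place of -0.16. Npm1 made up 36.9% of the sum at time 0 and 49.3% at 24 hours. Of the raw counts of a library, the 45 genes held 0.940% to 0.947% before treatment, 0.926% to 0.939% after 12 hours and 1.11% to 1.16% after 24 hours.

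**Figure D3:**
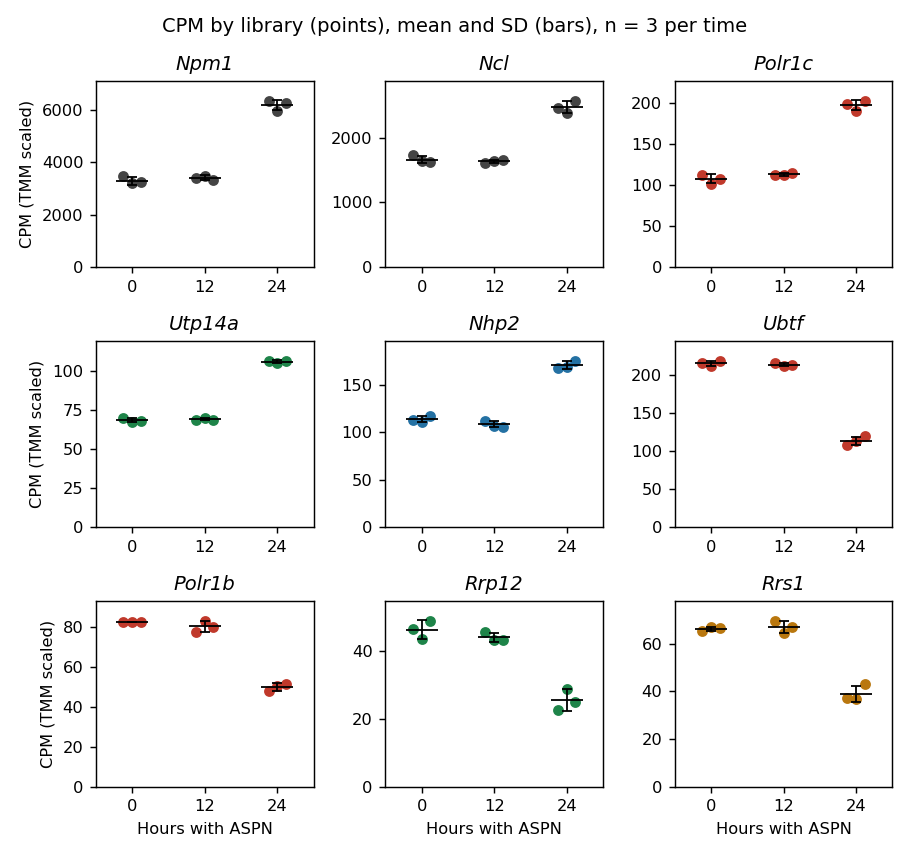
CPM (TMM scaled, vertical axes from 0) in each library at 0, 12 and 24 hours for the 9 genes called in any comparison, with points for libraries and bars for mean and SD (n = 3). In each panel the points of 0 and 12 hours lie together and the 3 points of 24 hours stand apart, higher for Npm1, Ncl, Polr1c, Utp14a and Nhp2 and lower for Ubtf, Polr1b, Rrp12 and Rrs1.

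Among the 8 genes of Pol I and its regulators, Polr1c rose while the other 7 fell. Polr1c (AC40) is a small subunit that Pol I shares with RNA polymerase III, Polr1a and Polr1b are the large subunits that form the catalytic center of Pol I, and Polr1e (PAF53) is a subunit of its own. Rrn3 (TIF-IA) brings Pol I to the promoter, Ubtf (UBF) binds along the ribosomal DNA, and Tcof1 (treacle) and Nolc1 are nucleolar phosphoproteins that work with Pol I. RefSeq promoters of GRCm38.p6, which span 250 bases before to 50 bases after a gene's start, were given for 7 of these 8 genes, and the E-box letters CACGTG, the core of the canonical MYC binding motif, were found in 1 of them, Rrn3, where they occur 215 and 48 bases before the start. The 250 bases before the start are shown for Rrn3 and for the 3 genes of the group with called changes, with CACGTG in capitals. They are those of Rrn3 (chr16:13780449-13780698, plus strand), Ubtf (chr11:102319593-102319842, minus strand), Polr1b (chr2:129100746-129100995, plus strand) and Polr1c (chr17:46248046-46248295, minus strand), each read 5′ to 3′ along the gene. The RefSeq start of Ubtf lies 150 bases inside the gene as positioned here, so the last 150 bases of its sequence are within that span, whereas the starts of Rrn3 and Polr1c lie 9 bases and that of Polr1b 1 base from the gene's first base as positioned here.
Rrn3: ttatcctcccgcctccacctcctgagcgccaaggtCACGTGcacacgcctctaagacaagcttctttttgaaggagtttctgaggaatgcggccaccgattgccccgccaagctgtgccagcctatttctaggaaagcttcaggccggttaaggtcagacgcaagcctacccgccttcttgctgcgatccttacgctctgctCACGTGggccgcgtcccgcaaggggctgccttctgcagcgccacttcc
Ubtf: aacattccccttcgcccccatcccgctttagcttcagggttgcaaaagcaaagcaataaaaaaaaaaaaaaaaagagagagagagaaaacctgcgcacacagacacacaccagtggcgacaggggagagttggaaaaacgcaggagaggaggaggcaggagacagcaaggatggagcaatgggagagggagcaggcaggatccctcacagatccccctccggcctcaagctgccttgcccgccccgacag
Polr1b: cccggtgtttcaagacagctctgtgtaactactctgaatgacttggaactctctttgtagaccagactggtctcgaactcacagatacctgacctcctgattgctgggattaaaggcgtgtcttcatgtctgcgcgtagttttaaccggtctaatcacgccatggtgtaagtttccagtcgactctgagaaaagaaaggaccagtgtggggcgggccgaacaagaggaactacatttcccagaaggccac
Polr1c: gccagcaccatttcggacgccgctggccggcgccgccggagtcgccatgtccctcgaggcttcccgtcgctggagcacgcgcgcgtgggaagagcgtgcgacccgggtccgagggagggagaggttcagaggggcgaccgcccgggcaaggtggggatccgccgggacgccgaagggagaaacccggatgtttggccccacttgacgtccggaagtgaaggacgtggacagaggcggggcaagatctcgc

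Ubtf (chr11:102304560-102319742) had the lowest log2 fold change of the 45 genes at 24 hours, although with offsets for exon length and GC content Rrs1 (-0.84) and Rrp12 (-0.66) were lower and Nip7 and Ubtf were both at -0.60. The level of Ubtf was 215, 211 and 218 CPM at time 0, 215, 211 and 212 CPM at 12 hours and 108, 112 and 119 CPM at 24 hours. The libraries of time 0 and 12 hours overlapped, and those of 24 hours lay far below them. The log2 fold change at 24 hours was -0.92 (SE 0.04, adjusted p = 1.06e-09, edgeR), a fold of 0.529. Polr1b (chr2:129100995-129126594), whose upstream sequence above holds no CACGTG, was at 82.5, 82.5 and 82.5 CPM at time 0, 77.3, 83.1 and 80.0 CPM at 12 hours and 47.7, 50.5 and 51.6 CPM at 24 hours. Its 24-hour libraries were all below the others, and Polr1b fell by 0.72 on the log2 scale (SE 0.04, adjusted p = 1.05e-08, edgeR). When offsets for exon length and GC content were included (length and GC correction), the values were -0.60 for Ubtf, still called, and -0.51 for Polr1b, under 1.5-fold.

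Polr1c (chr17:46243920-46248054) moved the other way. It was at 113, 102 and 108 CPM at time 0, 112, 112 and 114 CPM at 12 hours and 199, 190 and 202 CPM at 24 hours. All 3 libraries of 24 hours exceeded the 6 others. On the log2 scale Polr1c rose by 0.88 (SE 0.05, adjusted p = 2.26e-09, edgeR), or 1.84-fold. Its upstream sequence holds no CACGTG either. The other genes of this group fell by less than 1.5-fold, although Tcof1 was called with scaling by library totals (-0.72). Polr1a was at 137, 133 and 130 CPM at time 0, 135, 135 and 132 CPM at 12 hours and 104, 104 and 108 CPM at 24 hours, and its log2 fold change at 24 hours was -0.34 (SE 0.04, adjusted p = 5.68e-06, edgeR). With the correction for length and GC content this value was -0.00 (adjusted p = 0.954), so the fall of Polr1a was not seen under that setting. Rrn3 was at 72.7, 75.3 and 74.0 CPM at time 0, 69.9, 72.7 and 70.9 CPM at 12 hours and 58.0, 57.1 and 58.8 CPM at 24 hours. Its 24-hour libraries lay below all others, and Rrn3 fell by 0.35 on the log2 scale (SE 0.04, adjusted p = 6.53e-06, edgeR). The remaining genes of the group were Tcof1 (log2 fold change of -0.50), Polr1e (-0.33, SE 0.10) and Nolc1 (-0.19). Polr1e did not pass without replicate 3 of time 0 (-0.24, adjusted p = 0.0696, edgeR) or replicate 3 of 24 hours (-0.26, adjusted p = 0.0595), and Nolc1 did not pass with the length and GC correction (-0.10, adjusted p = 0.0604).

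Ratios within a library do not depend on how libraries were scaled, but they do not include the length and GC correction. The log2 ratio of Polr1c to Polr1b was 0.38 ± 0.07 at time 0, 0.49 ± 0.05 at 12 hours and 1.98 ± 0.07 at 24 hours (SD, n = 3). The ratio of Polr1c to Polr1a went from -0.32 ± 0.06 and -0.24 ± 0.03 to 0.91 ± 0.04. Against this, the ratio of Rrn3 to Polr1a was -0.85 ± 0.05, -0.91 ± 0.03 and -0.86 ± 0.02, where the libraries of time 0 overlapped those of both later times and the 24-hour libraries lay above those of 12 hours. With the length and GC correction, however, the 24-hour log2 fold changes of Rrn3 (-0.33) and Polr1a (-0.00) differed. Under it Polr1c was at 0.83 and Polr1b at -0.51. These pairs were chosen after the values were seen and were not tested, and a ratio shows unequal change and not which gene moved.

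Among the core proteins of snoRNPs, members of the same complex differed. The box C/D snoRNPs, which methylate ribosomal RNA, hold Fbl (fibrillarin, the methyltransferase), Nop56 and Nop58, and the U3 snoRNP also holds Rrp9. The box H/ACA snoRNPs, which convert uridine to pseudouridine, hold Dkc1 (dyskerin, the enzyme), Nhp2, Gar1 and Nop10. Nhp2 (chr11:51619735-51623714) was at 113, 110 and 117 CPM at time 0, 112, 107 and 106 CPM at 12 hours and 168, 169 and 175 CPM at 24 hours. The 24-hour libraries stood above all others, and Nhp2 rose by 0.59 on the log2 scale (SE 0.04, adjusted p = 2.69e-08, edgeR). This value lay close to 1.5-fold, and Nhp2 was not called without replicate 2 of time 0 (0.58) or replicate 3 of 24 hours (0.58), with the length and GC correction (0.40) or with scaling by library totals (0.37). Its partners Dkc1 (0.09, adjusted p = 0.110) and Gar1 (-0.06, adjusted p = 0.233) did not pass by edgeR's test. Nop10 was at 59.9, 58.0 and 62.0 CPM at time 0, 62.9, 66.7 and 60.3 CPM at 12 hours and 67.1, 66.5 and 75.3 CPM at 24 hours. Nop10 rose by 0.22 on the log2 scale (SE 0.05, adjusted p = 2.50e-03, edgeR), a value that was -0.00 with scaling by library totals and 0.09 (adjusted p = 0.119) with the length and GC correction. The log2 ratio of Nhp2 to Dkc1 was -0.02 ± 0.06 at time 0, -0.05 ± 0.02 at 12 hours and 0.49 ± 0.09 at 24 hours.

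In the box C/D complex, Nop58 rose and Nop56 fell. Nop58 was at 147, 154 and 151 CPM at time 0 and 226, 207 and 223 CPM at 24 hours, with a log2 fold change of 0.54. Nop56 was at 142, 165 and 162 CPM at time 0 and 117, 115 and 119 CPM at 24 hours, with a log2 fold change of -0.41. Neither gene's libraries overlapped between these times, and neither change reached 1.5-fold. With scaling by library totals, however, Nop56 was called (-0.63) and Nop58 was at 0.32. The log2 ratio of Nop58 to Nop56 within a library was -0.05 ± 0.09 at time 0, 0.06 ± 0.04 at 12 hours and 0.90 ± 0.05 at 24 hours. Fbl was at 206, 203 and 207 CPM at time 0, 201, 203 and 212 CPM at 12 hours and 227, 245 and 253 CPM at 24 hours. The 24-hour libraries were above the rest, and Fbl rose by 0.24 on the log2 scale (SE 0.04, adjusted p = 2.83e-04, edgeR), a rise that was 0.02 (adjusted p = 0.683) with scaling by library totals. Rrp9 was at 60.5, 63.3 and 64.1 CPM at time 0, 61.9, 55.5 and 57.9 CPM at 12 hours and 61.6, 65.4 and 65.7 CPM at 24 hours, and the groups overlapped (log2 fold change at 24 hours of 0.04, SE 0.05, adjusted p = 0.421, edgeR). Windows of 75 bases that recur in pseudogene transcripts made up 64.65% of the longest coding Fbl transcript and 35.77% of that of Nop56, so the counts of both are uncertain.

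The 40S pathway held called genes of either direction. Utp14a (chrX:48256862-48282453), which works late in the nucleolar small-subunit processome, was at 70.1, 67.6 and 67.9 CPM at time 0, 68.8, 69.7 and 68.7 CPM at 12 hours and 106, 105 and 107 CPM at 24 hours. The replicate values lay close together, and those of 24 hours were higher than all others. Utp14a rose by 0.63 on the log2 scale (SE 0.04, adjusted p = 1.30e-08, edgeR), which was 0.41 and not called with scaling by library totals, and 11.45% of its exon length overlaps 9530027J09Rik, a noncoding gene on the opposite strand. Rrp12 (chr19:41862851-41896173), which takes part in maturation and export of pre-ribosomal particles, was at 46.5, 43.5 and 48.9 CPM at time 0, 45.4, 43.3 and 43.1 CPM at 12 hours and 22.7, 28.9 and 25.0 CPM at 24 hours. Its 24-hour libraries were the lowest, although they varied more than those of Utp14a. Rrp12 had a log2 fold change at 24 hours of -0.85 (SE 0.08, adjusted p = 4.50e-07, edgeR).

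The other genes of the 40S pathway changed by less than 1.5-fold, although Tsr1 (-0.66) and Utp15 (-0.61) were called with scaling by library totals. Under that scaling Nop14 was at 0.29 and Nob1 at 0.16. With TMM scaling Nop14 (0.52), Nob1 (0.38), the nuclease that makes the last cut of 18S ribosomal RNA, and Utp18 (0.13) rose on the log2 scale, although Utp18 was at -0.09 with scaling by library totals, at 0.04 (adjusted p = 0.506, edgeR) with the length and GC correction, and at an adjusted p of up to 0.136 without 1 library. Tsr1 (-0.43), Utp15 (-0.39), Ltv1 (-0.35), Heatr1 (-0.26) and Utp4 (-0.16) fell. Bysl (0.15), Wdr43 (0.09) and Utp20 (0.01) did not pass, with adjusted p of 0.0531, 0.116 and 0.919 by edgeR's test. Nob1 and Ltv1, both of which act in late 40S assembly, thus moved in opposite directions.

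Of the 14 genes of the 60S pathway, 9 fell and 2 rose by the adjusted p alone. Rrs1 (chr1:9545408-9547455), which helps to bring the 5S ribosomal RNA particle into the large subunit, was at 65.3, 67.1 and 66.4 CPM at time 0, 69.8, 64.6 and 66.9 CPM at 12 hours and 37.1, 36.9 and 42.9 CPM at 24 hours. All 24-hour libraries lay below the 6 others. The log2 fold change was -0.76 (SE 0.06, adjusted p = 8.60e-08, edgeR), and with the length and GC correction it was -0.84. Below 1.5-fold, Rrp1b (-0.58), Nip7 (-0.53), Nop2 (-0.50, a methyltransferase of 28S ribosomal RNA), Ppan (-0.48), Gnl3 (-0.40, nucleostemin, a nucleolar GTPase), Nop16 (-0.30), Ebna1bp2 (-0.25) and Bop1 (-0.20) fell. With scaling by library totals Rrp1b (-0.80), Nip7 (-0.76), Nop2 (-0.72), Ppan (-0.70) and Gnl3 (-0.62) were called. Rrp1b was also called without replicate 1 of 24 hours (-0.62). With the length and GC correction Nip7 was called (-0.60), but Rrp1b was at -0.25 and Ppan at -0.31. The fall of Bop1 did not pass with that correction (-0.07, adjusted p = 0.186, edgeR) or without replicate 3 of time 0 (-0.16, adjusted p = 0.0527). Mrto4, a factor that holds the place of the ribosomal stalk in the pre-60S particle, rose by 0.45 on the log2 scale, from 53.9, 52.4 and 56.8 CPM to 72.2, 73.3 and 76.3 CPM, and 14.3% of its 75-base windows recur in pseudogene transcripts (10.49% for Pes1). Pes1, which forms the PeBoW complex with Bop1 and Wdr12, rose by 0.11, a value that was -0.11 with scaling by library totals, 0.08 (adjusted p = 0.0791, edgeR) with the length and GC correction, and at an adjusted p of up to 0.0878 without 1 library. Wdr12 (-0.09), Wdr74 (0.03) and Noc2l (0.00) did not pass by edgeR's test (adjusted p of 0.135, 0.634 and 0.960).

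**Figure D4:**
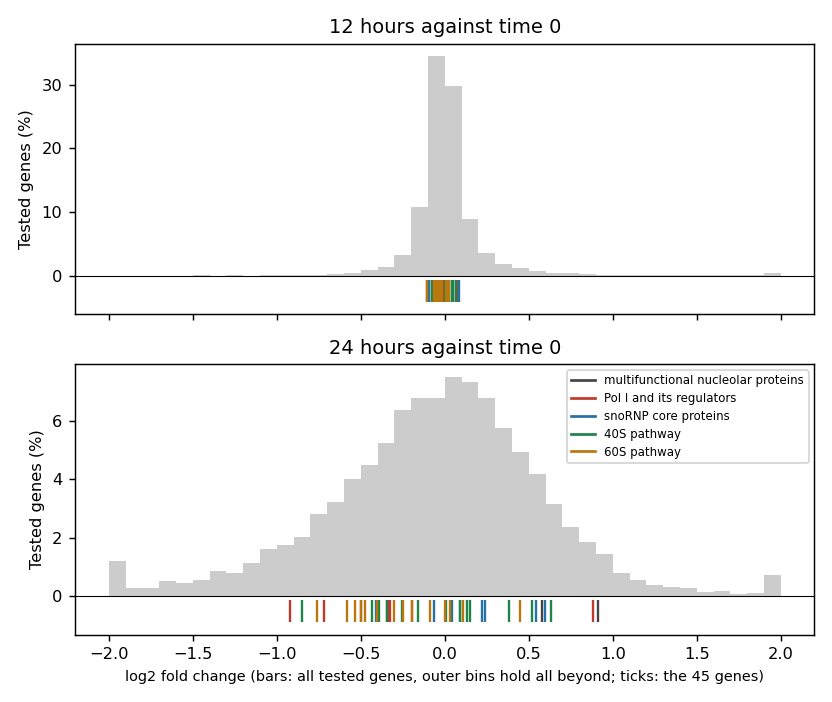
Share of all tested genes (gray bars, percent) by log2 fold change at 12 and at 24 hours relative to time 0, in bins with all values beyond the axis in the outermost bins, with a tick for each of the 45 genes in the color of its role. At 12 hours the ticks lie between -0.11 and 0.08 in the center of the distribution, and at 24 hours they spread between -0.92 and 0.91, well inside its tails.

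The 24-hour libraries were also compared with those of 12 hours, and as the same 24-hour libraries enter both comparisons their values are not independent. In the direct comparison of 24 with 12 hours, 9 of the 45 genes were called (20%, background 25.7%), with 5 higher (11.1%, background 10.4%) and 4 lower (8.89%, background 15.3%). Scaled by library totals alone, which moved the median of all genes by -0.22, the split was 2 higher and 12 lower, and with the length and GC correction it was 3 higher and 1 lower. The genes called higher were Npm1 (0.88), Polr1c (0.83), Nhp2 (0.68), Utp14a (0.64) and Ncl (0.62), and those called lower were Ubtf (-0.89), Rrs1 (-0.76), Rrp12 (-0.76) and Polr1b (-0.66). With the length and GC correction Ubtf (-0.57), Rrp12 (-0.57), Polr1b (-0.45), Nhp2 (0.49) and Ncl (0.58) were under 1.5-fold, and with scaling by library totals Nhp2 (0.46), Utp14a (0.42) and Ncl (0.39) were. By the adjusted p alone 17 rose (background 35.7%) and 21 fell (background 35.6%), and the median was -0.07 against 0.00 over all 11394 genes tested, with 20 above 0 (background 50.2%) and 25 below (background 49.8%). The replicate values of 13 genes lay wholly above those of 12 hours (background 35.5%) and those of 21 wholly below (background 38.5%). Ncl had an SE of 0.04 and an adjusted p of 4.35e-09 by edgeR's test in this comparison.

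Part of these values depended on the scaling and on the length and GC correction. Over the 45 genes, Spearman's rho between the 24-hour log2 fold change and exon length was -0.257 and that with GC content -0.223, against -0.15 and -0.164 over 11439 tested genes, and the genes are not independent replicates. Under the length and GC correction Polr1c (0.83), Npm1 (0.81), Utp14a (0.65), Rrs1 (-0.84), Rrp12 (-0.66), Ubtf (-0.60) and Nip7 (-0.60) were called at 24 hours. Of the 36 genes that rose or fell at 24 hours, 10 had values nearer to 0 by over 1.5 times with the correction and 0 had values farther from 0 by as much. Besides Ubtf, Polr1a, Nolc1, Nop10, Bop1 and Utp18, whose values are given above, these were Rrp1b (-0.25), Tcof1 (-0.19), Ppan (-0.31) and Heatr1 (-0.15).

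**Figure D5:**
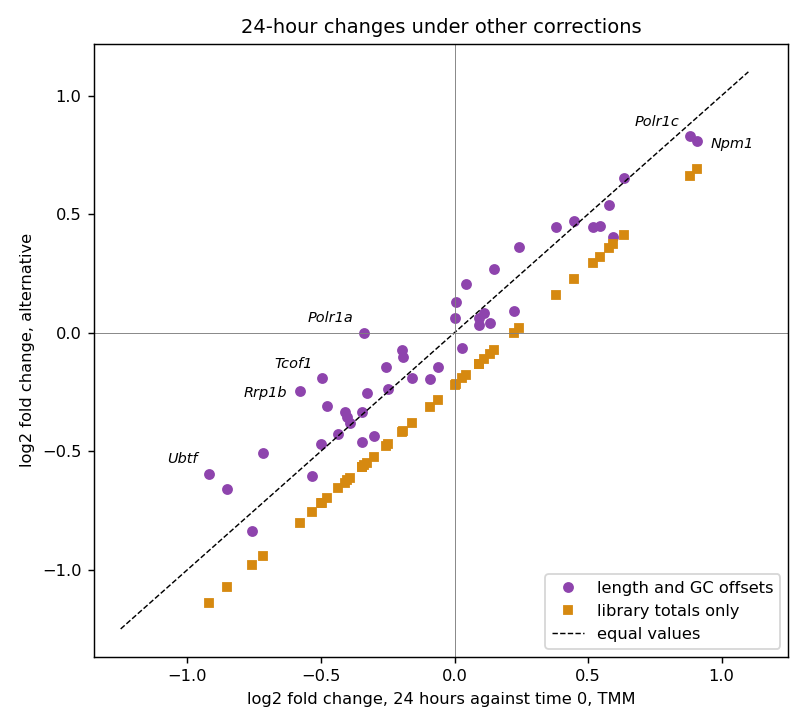
Log2 fold change of each of the 45 genes at 24 hours relative to time 0 with TMM scaling (horizontal axis) against the value with length and GC offsets (circles) or with scaling by library totals alone (squares), and a dashed line of equal values. The squares lie below the line for every gene, the circles scatter around it, and the circle of Polr1a lies at -0.00.

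The rest of the pathway was measured from a list of 124 other ribosome biogenesis genes, of which 123 were tested. At 12 hours 0 of them were called, by edgeR and by DESeq2, with 5 that rose and 1 that fell by the adjusted p alone (background 6.85% and 3.47%). The most extreme values were those of Taf1c (-0.24), Ddx55 (-0.14) and Exosc5 (-0.13) and of Utp23 (0.22), Eif6 (0.21) and Exosc8 (0.19), of which Taf1c, Eif6 and Exosc8 passed. At 24 hours 6 were called higher and 12 lower (background 12% and 16.8%), with a median of 0.03, and 46 rose and 48 fell by the adjusted p alone (background 34.4% and 36.5%). By class, 6 of the 14 other Pol I genes rose and 4 fell (median 0.08). Of the 49 other 60S genes 17 rose and 21 fell (median -0.06), and of the 47 other 40S genes 17 rose and 16 fell (median 0.07). The 13 genes of the RNA exosome had 6 that rose and 7 that fell (median -0.19). Taf1c, a subunit of the SL1 factor that Pol I needs at the promoter, had a log2 fold change of -1.34 (from 20.5 to 8.04 CPM), and the 40S processome genes Nol6 (-1.33, from 74.9 to 29.6 CPM) and Pwp2 (-1.29) followed. The highest were the 60S factors Nsa2 (0.93, from 196 to 372 CPM) and Eif6 (0.86) and the 40S kinase Riok3 (0.80). Between 12 and 24 hours 7 were called higher and 10 lower (background 10.4% and 15.3%, median 0.04), with Nol6 (-1.28), Urb2 (-1.27) and Pwp2 (-1.15) lowest and Nsa2 (0.90), Taf1d (0.79) and Ddx52 (0.72) highest. Polr1d, the partner of Polr1c in Pol I and RNA polymerase III, was chosen after the values were seen and rose by 0.57 at 24 hours (from 181 to 268 CPM, SE 0.04, adjusted p = 2.50e-08, edgeR).

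The 45 genes lie on 19 chromosomes, and some of them have features that their choice did not use. Small nucleolar RNA genes were found inside 8 of them (17.78%), against 1.59% of the genes of the table. Dkc1 (1), Gnl3 (3), Ncl (3), Nop56 (5), Nop58 (4), Ppan (2), Tsr1 (2) and Wdr43 (3) hold 23 in all. The 24-hour log2 fold changes of these 8 host genes lay between -0.48 and 0.58, with 4 above 0 and 4 below, and Wdr43 and Dkc1 were at -0.13 with scaling by library totals. CACGTG, a palindrome that reads alike on both strands, was found in the 300-base promoter windows of 9 of the 39 genes with a RefSeq promoter (23.08%), against 9.29% of 12001 genes of the table and 10.42% of 9145 tested genes. These 9 genes were Ltv1, Nop2, Pes1, Rrn3, Tsr1, Utp18, Utp20, Utp4 and Wdr43, so 6 of them belong to the 40S pathway. The RefSeq start lay within 100 bases of the gene's start as positioned here for 34 of the 39 genes, but that of Wdr43 lay 320 bases from it. The 24-hour log2 fold changes of the 9 genes with CACGTG ranged from -0.50 to 0.13 with a median of -0.16, and those of the 30 genes without these letters ranged from -0.92 to 0.88 with a median of -0.08. None of the 9 was called at 24 hours, but with scaling by library totals Nop2 (-0.72) and Tsr1 (-0.66) were. A match of these letters is a description and not a measured binding site.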

How the data were processed

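RNA-Seq was performed by the authors on MyC-CaP cells at 0, 12 and 24 hours of treatment with ASPN (n = 3 libraries per time). Per the methods and the labels, mRNA libraries were sequenced as paired-end reads, trimmed with Cutadapt, aligned to GRCm38.p6 with STAR and counted over Gencode genes with featureCounts, and the deposited values are raw counts per gene, without normalization. The strand setting and the handling of reads with several matches are not given in the sources used here. 17 of the 45 genes have exons that overlap those of a gene on the opposite strand, over 10% of the exon length for Tsr1 (32.32%), Noc2l (20.86%) and Utp14a (11.45%).

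From the counts, each pair of times was tested in R 4.3.3 with edgeR 4.0.16 (filterByExpr, TMM, glmQLFit and glmQLFTest, no block) on the whole table, with Benjamini-Hochberg adjustment over all genes tested and the study's limits of 0.05 and 1.5-fold. The 45 genes passed the filter in each comparison. Levels carry the SD (n = 3) and log2 fold changes their SE. Within a time, the chi-square per degree of freedom between any pair of libraries was 3.48 to 18.2, more than counting noise gives, so each library was 1 replicate. Alternatives were DESeq2 1.42.0, RLE, upper-quartile and library-total scaling, no filter, a minimum of 10 counts in all libraries, a joint fit of the 9 libraries, a replicate block, limma-voom (limma 3.58.1), glmTreat, loess offsets for length and GC content (span 0.3) and leaving out each library. The genes and lists were chosen with earlier results of these data known. Full values are given for genes called in any comparison, the 3 highest and 3 lowest of each comparison, and Polr1a, Polr1b, Rrn3, Ubtf, Ncl, Npm1 and Fbl. Values of other genes given by library were chosen after the values were seen. Gene models are from GENCODE M21, where 15374 of 15384 identifiers were found (99.9%), and promoters from RefSeq (39 of 45 genes). On simulated data, of 200 changed genes among 11436 in the comparison of 24 hours with time 0, 100% were called, with 1 false call. These planted changes (median absolute log2 fold change 1.02) exceeded those of the 45 genes (-0.92 to 0.91). They were balanced in direction, at a fixed dispersion and in well-counted genes only, so the power for changes near 1.5-fold was not tested. A simulated bias in length and GC content, the properties that the offsets fit, gave 2862 calls without offsets and 0 with them. Other forms of bias were not tested.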

Additional observations from a re-analysis of the deposited data

Results flagged for a closer look

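For 9 of the 45 genes the change after 24 hours differed from the change after 12 hours, as tested directly by the comparison of the 24-hour with the 12-hour libraries (edgeR with Benjamini-Hochberg adjustment, same limits as above), in which the time 0 libraries cancel out. The log2 differences were 0.88 for Npm1, 0.83 for Polr1c, 0.68 for Nhp2, 0.64 for Utp14a, 0.62 for Ncl, -0.89 for Ubtf, -0.76 for Rrs1, -0.76 for Rrp12 and -0.66 for Polr1b. With length and GC offsets 5 of the 9 were under 1.5-fold (Ubtf at -0.57, Rrp12 at -0.57, Polr1b at -0.45, Nhp2 at 0.49 and Ncl at 0.58), and with scaling by library totals Nhp2 (0.46), Utp14a (0.42) and Ncl (0.39) were. In each of the 9 genes the 3 libraries of 24 hours lay on 1 side of the 3 libraries of 12 hours. Of all genes tested 25.7% were called in this comparison, so such a difference was common in the table.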

How the results depend on the processing

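DESeq2, RLE and upper-quartile factors, both filters, the fit of all 9 libraries and limma-voom left the counts of called genes among the 45 and among the other ribosome biogenesis genes within 1.5 times of those reported, although with DESeq2, RLE and upper-quartile factors Ncl was also called at 24 hours, which made 5 higher in place of 4. With scaling by library totals, the 45 genes had 2 higher and 13 lower calls at 24 hours (other ribosome biogenesis genes 2 and 20, median of the 45 genes -0.38) and 2 and 12 between 12 and 24 hours (others 1 and 18, median -0.29). Under this scaling the 24-hour values of Dkc1 (-0.13), Nop10 (-0.0007), Pes1 (-0.11), Wdr43 (-0.13), Wdr74 (-0.19), Utp18 (-0.0901), Utp20 (-0.22), Rrp9 (-0.18), Bysl (-0.0729) and Noc2l (-0.22) changed sign, in a table whose median moved by -0.22. Over the whole table the 11 genes called lower at 12 hours were 5 in the fit of all 9 libraries, 18 without a filter or with length and GC offsets and 4 to 15 without 1 library, and with library totals 698 were higher and 3008 lower at 24 hours (reported 1374 and 1924) and 484 and 2830 between 12 and 24 hours (reported 1184 and 1740). By the adjusted p alone, 1 of the 45 genes was lower at 12 hours (others 5 higher and 1 lower), 13 were higher and 23 lower at 24 hours (others 46 and 48), and 17 and 21 between 12 and 24 hours (others 49 and 44). With glmTreat, which tests against 1.5-fold itself, 2 of the 45 genes were higher at 24 hours and 3 between 12 and 24 hours, and the others had 7 lower and 4 higher, respectively. With length and GC offsets the medians of the 45 genes were -0.0477, -0.10 and -0.0232 at 12 hours, at 24 hours and between them, 3 genes were higher and 1 lower between 12 and 24 hours, Wdr74 was at -0.0665 at 24 hours and Polr1a at 0.0059 between 12 and 24 hours. Noc2l was at -0.0028 without a filter and -0.0025 with at least 10 counts in every library. The cause of these shifts was not tested.

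Without 1 library at a time, the calls among the 45 genes ranged from 3 to 5 higher and 4 to 5 lower at 24 hours and stayed at 5 and 4 between 12 and 24 hours and at 0 and 0 at 12 hours. The 24-hour median ranged from -0.19 to -0.13, that of 12 hours from -0.03 to -0.01 and that between them from -0.07 to -0.03. The 24-hour values of Utp20 (-0.0087 to 0.0463), Wdr74 (-0.0047 to 0.0737) and Noc2l (-0.0095 to 0.0304) crossed 0. The calls that turned were Nhp2 without replicate 2 of time 0 or replicate 3 of 24 hours, Ncl without replicate 1 of time 0 or replicate 2 of 24 hours, and Rrp1b without replicate 1 of 24 hours. Where 1 library was left out, its time had 2.

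Libraries with the same replicate number did not deviate together (mean correlation of their deviations -0.02, -0.06 and 0.02 for 12 hours, 24 hours and 24 against 12 hours), so the numbers do not pair the libraries. With the replicate block, the calls were 0 and 0, 4 higher and 4 lower, and 5 and 4, the medians -0.02, -0.16 and -0.07, and with length and GC offsets and the block the medians were -0.0472, -0.11 and -0.0225 with 3 higher and 1 lower calls between 12 and 24 hours, Wdr74 at -0.0672 and Polr1a at 0.0055. With the longest coding transcript as the length, a setting chosen after seeing the data, 4 genes in place of 2 exceeded 100 CPM per kilobase at time 0.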
